A study of Rattus norvegicus with 372 samples.

Results

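The 8 genes described here encode carriers that bring bile acids, organic anions and carnitine from blood into the hepatocyte: Slc10a1, Slco1a1, Slco1a4, Slco1b2, Slco2b1, Slc22a5, Slc22a7 and Slc22a8. They were chosen by name, and every probe whose symbol matched one of these names was taken. In the TempO-Seq whole transcriptome (WT) assay they had 9 of 22253 probes and made up 8 of 20946 genes. The smaller S1500+ (ST) assay, with 2654 probes, held 7 of them. TempO-Seq counts pairs of short oligos that are ligated side by side on an RNA, and each read is counted for the probe it came from.

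The liver clears bile acids, hormones and many drugs through such carriers on the sinusoidal membrane, which faces the blood. Slc10a1 encodes NTCP, which takes up conjugated bile acids together with sodium, and the Slco genes encode OATPs, which carry bile acids, steroid conjugates and drugs without sodium. Slc22a7 (OAT2) and Slc22a8 (OAT3) carry organic anions, and Slc22a5 (OCTN2) carries carnitine, which long-chain fatty acids need to enter mitochondria. Several of these genes are known as targets of hepatocyte transcription factors or of the nuclear receptors PXR, CAR and PPAR alpha.

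Primary hepatocytes of male Wistar rats were held in collagen sandwich culture and exposed to 14 chemicals, each at a low and a high concentration, for 24 h. The vehicle was 0.5% DMSO, and wells with culture medium alone ("media" in the labels) stood beside it. Each of the 2 batches used cells of 1 rat and its own library preparation and sequencing, so rat and batch cannot be told apart, and the 3 wells of a treatment within a batch are technical replicates. Batch 1 had 3 vehicle and 3 media wells, all on 1 of its plates. Batch 2 had 6 of each, spread over both of its plates. The chemicals were acetaminophen, caffeine, isoniazid and valproic acid at 400 and 10000 µM, chloramphenicol at 18 and 450 µM, diclofenac at 16 and 400 µM, doxorubicin at 0.08 and 2 µM, indomethacin at 12 and 300 µM, ketoconazole at 0.6 and 15 µM, naproxen at 80 and 2000 µM, ranitidine at 160 and 4000 µM, simvastatin at 2.4 and 60 µM, sulfasalazine at 4 and 100 µM, and WY14643, an agonist of PPAR alpha, at 8 and 200 µM.

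The WT wells had 2709504 to 8948654 reads in batch 1 and 2289425 to 8975207 in batch 2. The ST wells had 558190 to 2009222 and 984283 to 2210264. The shallowest WT library was a media well of batch 2. The 8 hepatocyte markers (Alb, Ttr, Apoa1, Tf, Fgb, Serpina1, Cps1, Hpx) together made up 38580 to 46010 counts in 1000000 reads of a well (CPM) in the vehicle wells, against 29.7 to 49.9 CPM for 8 markers of Kupffer cells and leukocytes. The 5 endothelial markers summed to 1.67 to 3.81 CPM and the 4 stellate cell markers on the assay to 0.445 to 2.91 CPM. The 5 cholangiocyte markers summed to 33.1 to 49.0 CPM, with 1 of them at 0 in every vehicle well. At the high concentrations the summed hepatocyte markers ranged from 7233 to 46360 CPM. In bulk samples like these, fewer cells of a type and less RNA per cell cannot be told apart.

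Probe counts were low for some carriers. Slc22a8 had a mean of 815 reads per WT well, Slc22a5 363, Slco1a1 89.2, Slc22a7 35.4 and Slc10a1 12.6. These 5 genes passed the filter of a mean of at least 10 reads over the wells and were tested among 10191 genes. The other 3 stayed below it, with 9.50 reads per well for Slco1a4, 8.87 for Slco1b2 and 4.40 for Slco2b1, and are described by their reads and by a fit without the filter. Levels are compared only within a gene, because each probe has its own efficiency.

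In vehicle wells the batches differed in several carriers. Slco1a1 was at 25.0 ± 2.39 CPM (SD, n = 3 wells) in batch 1 and at 11.1 ± 2.55 (n = 6) in batch 2, which is 2.26 times higher in batch 1. Slco1b2 was at 2.71 ± 0.464 CPM and 0.999 ± 0.200 CPM, 2.71 times higher in batch 1. Slc22a8 went the other way, with 180 ± 15.3 CPM in batch 1 and 248 ± 25.4 CPM in batch 2. For Slco1a1, Slco1b2, Slc22a8 and Slc10a1 the vehicle wells of the batches did not overlap, and for the other 4 carriers they did. With 1 rat per batch, these differences were not tested as differences between animals.

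The start regions of 3 members hold the letters GTTAAT, a core of the binding motif of HNF1, a homeodomain transcription factor of hepatocytes. They are shown as the members whose windows hold these letters. Slco1a1, Slc22a7, Slco1a4 and Slco2b1 were also lower with 5 or more of the high concentrations. Their windows lack these letters, as does that of Slc22a5. Whether the letters bear on the direction of a change was not tested. The stretches are from RefSeq on the rat assembly GRCr8, read along the gene's own strand, and the capitals mark GTTAAT. They lie at chr6:106357945-106358004 (minus strand) for Slc10a1, at chr4:176282481-176282566 (plus strand) for Slco1b2, and at chr1:214927151-214927236 (plus strand) for Slc22a8.
Slc10a1: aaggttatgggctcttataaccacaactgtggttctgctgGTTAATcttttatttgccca
Slco1b2: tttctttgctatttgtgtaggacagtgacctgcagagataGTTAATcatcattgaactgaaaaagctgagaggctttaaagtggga
Slc22a8: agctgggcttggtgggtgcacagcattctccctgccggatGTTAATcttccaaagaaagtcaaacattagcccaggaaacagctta
The letters start 20 bases before the annotated start in Slc10a1, 63 before it in Slco1b2 and 93 before it in Slc22a8. All 8 members matched a window of 250 bases before the start, and 3 held GTTAAT on either strand, as did 6.45% of 33469 rat windows. AGGTCA, the letters of a nuclear receptor motif, was held by Slc10a1 and Slco1b2, and by 14.1% of all windows. The Slc22a5 window held neither and had 74.4% G and C, against a median of 51.2% over all windows. A match is a description of letters and does not show that a factor binds there. In the same assembly Slco1b2, Slco1a4 and Slco1a1 lie on chromosome 4.

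Across the 14 high concentrations, Slc22a8 was lower with 13 and Slco1a1 with 11, while the carnitine carrier Slc22a5 was higher with 13. Slc10a1 was lower with 7 and Slc22a7 with 6. Of 70 gene and treatment pairs tested (5 genes, 14 treatments), 37 were lower and 16 higher than vehicle at an adjusted p under 0.05 in edgeR's quasi-likelihood test, or 52.9% and 22.9%. Over all genes tested, 25.5% of pairs were lower and 25.4% higher at this threshold. The median log2 fold change (L2FC) of the 70 pairs was -0.89. TMM scaling holds the median over all genes near 0 for each treatment, and with library totals in its place the median of the 70 pairs was -1.02, with medians over all genes from -0.43 to 0.27. At the 14 low concentrations 9 pairs were lower and 8 higher, or 12.9% and 11.4%, against 4.5% and 4.91% of all pairs. All 53 changes at the high and all 17 at the low concentrations had the same sign in both batches, as did 98.2% and 98.3% of the pairs of all genes called at these levels. Of the carriers' changes 49 and 9 passed the test in each batch by itself, or 49 of 53 and 9 of 17, against 55.6% and 35.8% of the called pairs of all genes. When the wells of each rat were added first, so that n = 2 rats, 50 of the 53 and 9 of the 17 still passed. Of the called pairs of all genes, 72.3% at the high and 42.7% at the low concentrations passed in those sums.

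**Figure D1:**
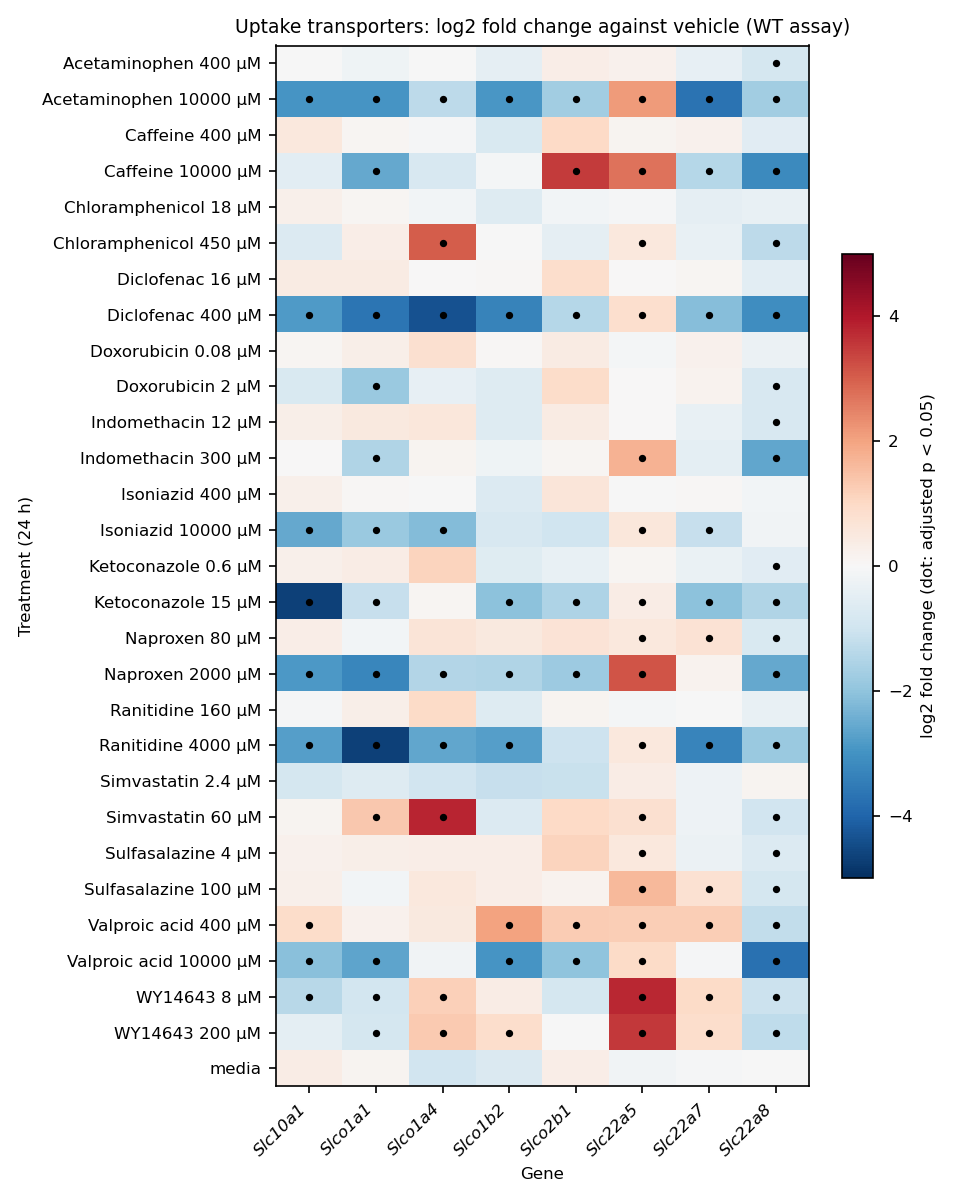
L2FC against vehicle of the 8 carriers (columns) for the 28 treatments and for media (rows) in the WT assay, on a colour scale from -5 (blue) to 5 (red), with a dot where the adjusted p was under 0.05. Slco1a4, Slco1b2 and Slco2b1 are from the fit without the filter. The Slc22a5 column is red or pale, with the strongest colours for WY14643, and the Slc22a8 column is blue or pale.

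Slc22a5 was higher than vehicle in 17 of the 28 treatments and lower in none. In vehicle its levels in the 3 wells of batch 1 were 14.6, 18.8 and 22.3 CPM, and in batch 2 they ran from 17.3 to 29.2 CPM with a median of 24.6 CPM. With 8 µM WY14643 the wells were at 221, 231 and 247 CPM in batch 1 and at 244, 262 and 262 CPM in batch 2. Every treated well was far above every vehicle well of either batch. The L2FC was 3.76 ± 0.11 (SE; adjusted p = 5.41e-71), a 13.6-fold rise, and at 200 µM it was 3.53 ± 0.11 (adjusted p = 1.38e-67).

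The rise of Slc22a5 was not restricted to WY14643. It was higher than vehicle with 13 of the 14 high concentrations, all but 2 µM doxorubicin (L2FC of 0.00), and lower with none. Of all genes tested, 14 (0.137%) were higher with at least as many. The L2FC was 3.13 ± 0.11 with 2000 µM naproxen, 2.71 ± 0.11 with 10000 µM caffeine, 2.12 ± 0.11 with 10000 µM acetaminophen, 1.73 ± 0.11 with 300 µM indomethacin and 1.62 ± 0.11 with 100 µM sulfasalazine. The other 7 rises at the high concentrations lay between 0.38 (15 µM ketoconazole) and 0.96 (10000 µM valproic acid). Of these, 3 did not pass against the vehicle of their own plate in batch 2, where the L2FC was 0.21 with 400 µM diclofenac, 0.28 with 10000 µM isoniazid and 0.14 with 4000 µM ranitidine. The value with 450 µM chloramphenicol was 0.17 in the ST assay and did not pass there. At the low concentrations it was higher with WY14643, with 400 µM valproic acid (1.24 ± 0.11), with 4 µM sulfasalazine (0.54 ± 0.12) and with 80 µM naproxen (0.52 ± 0.12). The rises with 80 µM naproxen, 4 µM sulfasalazine and 15 µM ketoconazole did not pass in the sums per rat (adjusted p = 0.119, 0.200 and 0.0590). With 80 µM naproxen the L2FC was 0.29 in batch 2 alone and 0.13 there against the vehicle of the same plate. It was 0.28 in the ST assay, and none of these values passed.

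Ordered by level, the mean of the batch means was 244 CPM with 8 µM WY14643, 215 with 200 µM WY14643, 190 with 2000 µM naproxen, 131 with 10000 µM caffeine and 71.0 with 10000 µM acetaminophen. The wells of naproxen and caffeine, and those of caffeine and acetaminophen, did not overlap in either batch. For the other 27 of the 29 neighbours in the order, the wells overlapped in at least 1 batch, so their order is not resolved by these wells. Vehicle stood in place 26 of 30 and media last, at 18.1 CPM. In 13 of the 28 treatments all wells lay above all vehicle wells of the same batch, in both batches.

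The Slc22a5 counts are the sum of 2 probes. The L2FC of the probes correlated over the 28 treatments (Pearson r = 0.972, a description, since the treatments share the vehicle wells), but their signs were the same in only 20 of the 28, and their sizes were unequal. With 8 µM WY14643 the more abundant probe rose 12.4 times and the other 4.83 times, and with 2000 µM naproxen 9.49 and 5.44 times. With 15 µM ketoconazole the ratios were 1.35 and 0.821. The ST assay holds only the less abundant probe. There the L2FC was 2.55 with 8 µM WY14643 and 2.34 with 2000 µM naproxen, and its values with 15 µM ketoconazole (-0.13) and 4 µM sulfasalazine (-0.07) had the opposite sign to the WT sum.

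Over the 14 high concentrations, 43 of 98 pairs of 7 tested carnitine genes (43.9%) were higher and 27 (27.6%) lower. Over all genes 25.4% of pairs were higher and 25.5% lower. These 7 genes act in carnitine synthesis and transfer, and the median L2FC of their 98 pairs was 0.12. Of the 7, 5 were higher and none lower with 8 µM WY14643, with a median L2FC of 3.16. In that treatment 56.2% of all genes were called. The highest L2FC were those of Crat (4.18 ± 0.13), Cpt1a (4.09 ± 0.20) and Crot (3.68 ± 0.12), which encode transferases that attach or exchange carnitine and fatty acyl groups. With 10000 µM acetaminophen Slc22a5 rose, and 5 of the 7 fell and 1 rose, in a treatment where 78.9% of all genes were called. Bbox1 was at -3.36 ± 0.18 and Aldh9a1 at -1.81 ± 0.12 (L2FC). Tmlhe held 2 reads in batch 1 and 9 in batch 2 (3 wells each), against 64 (3 wells) and 183 (6 wells) in vehicle. All 3 are enzymes of carnitine synthesis. Of the PPAR alpha targets, Cyp4a1, Ehhadh and Cpt1b were higher with 8 µM WY14643, with L2FC of 10.60, 10.56 and 7.32. With 10000 µM acetaminophen Ehhadh was at 0.88 and Cpt1b at 0.79.

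Slc22a8 was lower than vehicle in 20 of the 28 treatments and higher in none. Vehicle wells held 165, 179 and 196 CPM in batch 1 and 222 to 277 CPM in batch 2, with a median of 246 CPM. With 10000 µM valproic acid the wells were at 15.3, 15.5 and 21.2 CPM in batch 1 and at 18.3, 18.3 and 29.2 CPM in batch 2. The highest treated well was below the lowest vehicle well by a wide margin. The L2FC was -3.75 ± 0.17 (adjusted p = 5.18e-48), or 13.4 times lower. No treatment raised the gene at an adjusted p under 0.05. Its highest level was with 2.4 µM simvastatin, at 187 to 231 CPM in batch 1 and 248 to 325 CPM in batch 2, which overlapped the vehicle wells in both. In 20 of the treatments all wells lay below all vehicle wells of the same batch, in both batches.

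Of the 14 high concentrations, 13 lowered Slc22a8, and 0.667% of genes were lower with at least as many. The exception was 10000 µM isoniazid, with an L2FC of -0.18. After valproic acid the strongest falls were with 10000 µM caffeine (-3.20 ± 0.17), 400 µM diclofenac (-3.12 ± 0.16), 300 µM indomethacin (-2.62 ± 0.16) and 2000 µM naproxen (-2.55 ± 0.16). The weakest was with 2 µM doxorubicin (-0.82 ± 0.14), which did not pass in the sums per rat (adjusted p = 0.0991).

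The gene was lower at 7 of the 14 low concentrations as well, and 10 of the 10191 genes (0.0981%) were lower with at least as many. The L2FC was -1.23 ± 0.15 with 400 µM valproic acid and -1.09 ± 0.15 with 8 µM WY14643, and these falls also passed in the sums per rat (adjusted p = 0.00229 and 0.00200). The other 5, with 400 µM acetaminophen (-0.89 ± 0.15), 12 µM indomethacin (-0.79 ± 0.14), 80 µM naproxen (-0.77 ± 0.14), 4 µM sulfasalazine (-0.67 ± 0.14) and 0.6 µM ketoconazole (-0.56 ± 0.14), did not pass there, with adjusted p from 0.164 to 1. The ketoconazole value did not pass when any 1 replicate of every group was left out. In batch 1, acetaminophen, indomethacin, ketoconazole, sulfasalazine and WY14643 were on the plate without vehicle wells, where plate and treatment cannot be told apart. In batch 1 alone the falls with acetaminophen, indomethacin, sulfasalazine and ketoconazole did not pass. Their adjusted p there was 0.0732, 0.0696, 0.285 and 0.826. Against the vehicle of their own plate in batch 2 all 7 falls passed. In the ST assay the same 7 passed, with L2FC from -1.17 to -0.58. The L2FC was negative in 13 of the 14 low concentrations, all of which share the vehicle wells, and 0.14 with 2.4 µM simvastatin. Vehicle and media wells lay together in rows F and G of the plates, and whether a well's place bears on the level was not tested. Media differed from vehicle by -0.01 ± 0.13 (L2FC). The direct comparison of high with low concentration, which does not use vehicle, was lower for 11 of the 14 chemicals, most of all for caffeine (-2.64 ± 0.17) and diclofenac (-2.58 ± 0.17).

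**Figure D2:**
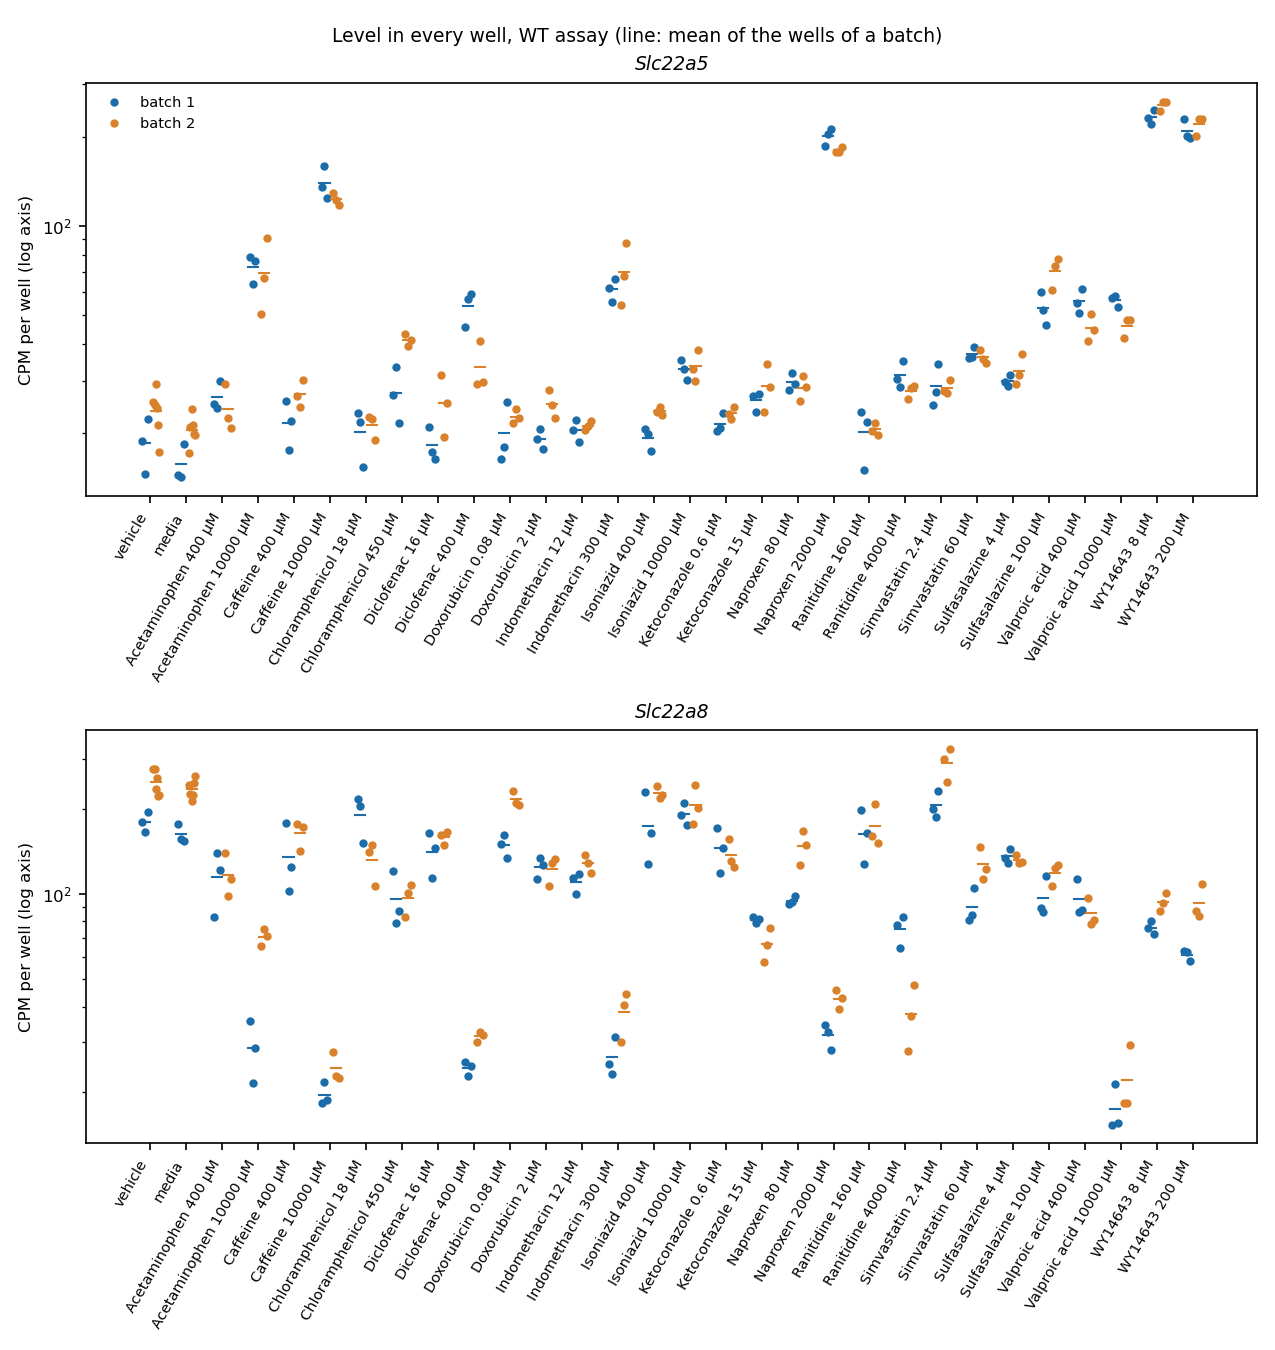
CPM of Slc22a5 (top) and Slc22a8 (bottom) in every WT well on a log axis, by treatment, with batch 1 in blue, batch 2 in orange and a line at the mean of the wells of a batch. Slc22a5 stands at 198 CPM or above in the WY14643 wells against 14.6 to 29.2 CPM in vehicle, and Slc22a8 falls to between 15.3 and 29.2 CPM with 10000 µM valproic acid.

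Slc10a1 was lower with 7 of the 14 high concentrations and higher with none, and 20.6% of genes were lower with at least as many. In vehicle the gene held 6, 13 and 16 reads per well in batch 1 (1.07, 1.94 and 2.37 CPM) and 14 to 23 reads in batch 2 (2.42 to 3.40 CPM). With 15 µM ketoconazole 4 of the 6 wells held no read, 1 well of batch 1 held 2 reads and 1 well of batch 2 held 1. Such counts bound the size of the fall only loosely. The ratio to vehicle was 0.0626 in batch 1 (95% counting interval 0.00729 to 0.244) and 0.0146 in batch 2 (0.000366 to 0.0831), and the adjusted p of the joint fit was 4.40e-15. The ST assay uses another probe for this gene, with 22 to 57 reads per vehicle well and 4 to 13 reads with ketoconazole, and there the L2FC was -2.65 ± 0.22 (adjusted p = 1.62e-19).

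With 10000 µM acetaminophen, 2000 µM naproxen and 4000 µM ranitidine each batch 1 group held 2 reads of Slc10a1 in all, against 35 in the vehicle wells of that batch. In the ST assay their L2FC was -2.10, -2.25 and -2.95. The WT L2FC was -2.82 ± 0.39 with 400 µM diclofenac, -2.54 ± 0.38 with 10000 µM isoniazid and -2.11 ± 0.34 with 10000 µM valproic acid. With 8 µM WY14643 it was -1.37 ± 0.34 (adjusted p = 2.90e-04). In batch 1 alone it was -1.15 and did not pass. The WY14643 wells there held 4, 0 and 6 reads and were on the plate without vehicle wells. The 1 rise was with 400 µM valproic acid, with wells at 2.14, 4.28 and 5.97 CPM in batch 1 and at 3.11, 4.20 and 4.85 CPM in batch 2. The lowest well of each batch lay within the vehicle range, and the L2FC of 0.91 ± 0.25 (adjusted p = 0.00243) fell to 0.65 in batch 2 alone and to 0.73 without replicate 1 of every group, where it did not pass.

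Slco1a1 was the 1 OATP gene that passed the filter, and its fall with ranitidine was among the strongest. Vehicle wells held 22.3, 25.9 and 26.8 CPM in batch 1 and 8.46 to 15.0 CPM in batch 2, with a median of 10.6 CPM. With 4000 µM ranitidine they held 0.150, 0.355 and 1.17 CPM in batch 1 and 0.111, 0.573 and 1.20 CPM in batch 2. All treated wells were below all vehicle wells, in spite of the gap between the batches. The L2FC was -4.66 ± 0.32 (adjusted p = 3.50e-30), and -3.94 in the ST assay.

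Slco1a1 was lower with 11 of the 14 high concentrations, and 4.09% of genes were lower with at least as many. The L2FC was -3.67 ± 0.28 with 400 µM diclofenac, -3.25 ± 0.27 with 2000 µM naproxen, -2.94 ± 0.27 with 10000 µM acetaminophen, -2.62 ± 0.24 with 10000 µM valproic acid and -2.57 ± 0.25 with 10000 µM caffeine. Weaker falls were seen with 2 µM doxorubicin (-1.84 ± 0.23), 10000 µM isoniazid (-1.84 ± 0.23), 300 µM indomethacin (-1.49 ± 0.22), 15 µM ketoconazole (-1.17 ± 0.22) and 200 µM WY14643 (-0.88 ± 0.21). Its 1 fall at a low concentration in the WT fit was with 8 µM WY14643 (-0.90 ± 0.22). The ST assay also called Slco1a1 lower with 2.4 µM simvastatin (-0.77, adjusted p = 0.00730). With 12 µM indomethacin it was called higher there (0.65, adjusted p = 0.0154). The gene rose with 60 µM simvastatin, to 39.3, 40.01 and 43.4 CPM in batch 1 and 27.0, 40.01 and 42.5 CPM in batch 2, all above the vehicle wells of their batch. The L2FC was 1.36 ± 0.19 (adjusted p = 1.05e-09), and 1.54 in the ST assay.

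Slc22a7, the organic anion carrier OAT2, moved in both directions. Vehicle wells held 3.93, 6.05 and 6.74 CPM in batch 1 and 4.00 to 7.08 CPM in batch 2, with a median of 5.37 CPM. With 10000 µM acetaminophen the wells held 0.154, 0.201 and 0.275 CPM in batch 1, which is 1 read each, and 0, 4 and 6 reads in batch 2. All were below the vehicle wells. The ratio to vehicle in batch 1 was 0.0353 (95% counting interval 0.00716 to 0.106), and the adjusted p of the joint fit was 2.23e-19.

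Of the 14 high concentrations 6 lowered Slc22a7 and 2 raised it, and 26.3% of genes were lower and 70.5% higher with at least as many. The L2FC was -3.31 ± 0.31 with 4000 µM ranitidine, -2.11 ± 0.26 with 400 µM diclofenac, -2.06 ± 0.26 with 15 µM ketoconazole, -1.41 ± 0.25 with 10000 µM caffeine and -1.15 ± 0.24 with 10000 µM isoniazid. The strongest rise was with 400 µM valproic acid, at 9.62, 11.8 and 12.7 CPM in batch 1 and 13.4, 13.7 and 16.1 CPM in batch 2, above every vehicle well of either batch. Its L2FC was 1.24 ± 0.20 (adjusted p = 4.93e-08). WY14643 gave 0.98 ± 0.20 at 8 µM and 0.89 ± 0.20 at 200 µM, 100 µM sulfasalazine gave 0.75 ± 0.20, and 80 µM naproxen gave 0.72 ± 0.20. The naproxen and sulfasalazine rises did not pass in the sums per rat (adjusted p = 0.246 and 0.0687). In batch 1, sulfasalazine and WY14643 were on the plate without vehicle wells, where plate and treatment cannot be told apart. Against the vehicle of their own plate in batch 2 the L2FC was 0.10 with 100 µM sulfasalazine, 0.50 with 8 µM WY14643 and 0.40 with 200 µM WY14643, none of which passed.

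**Figure D3:**
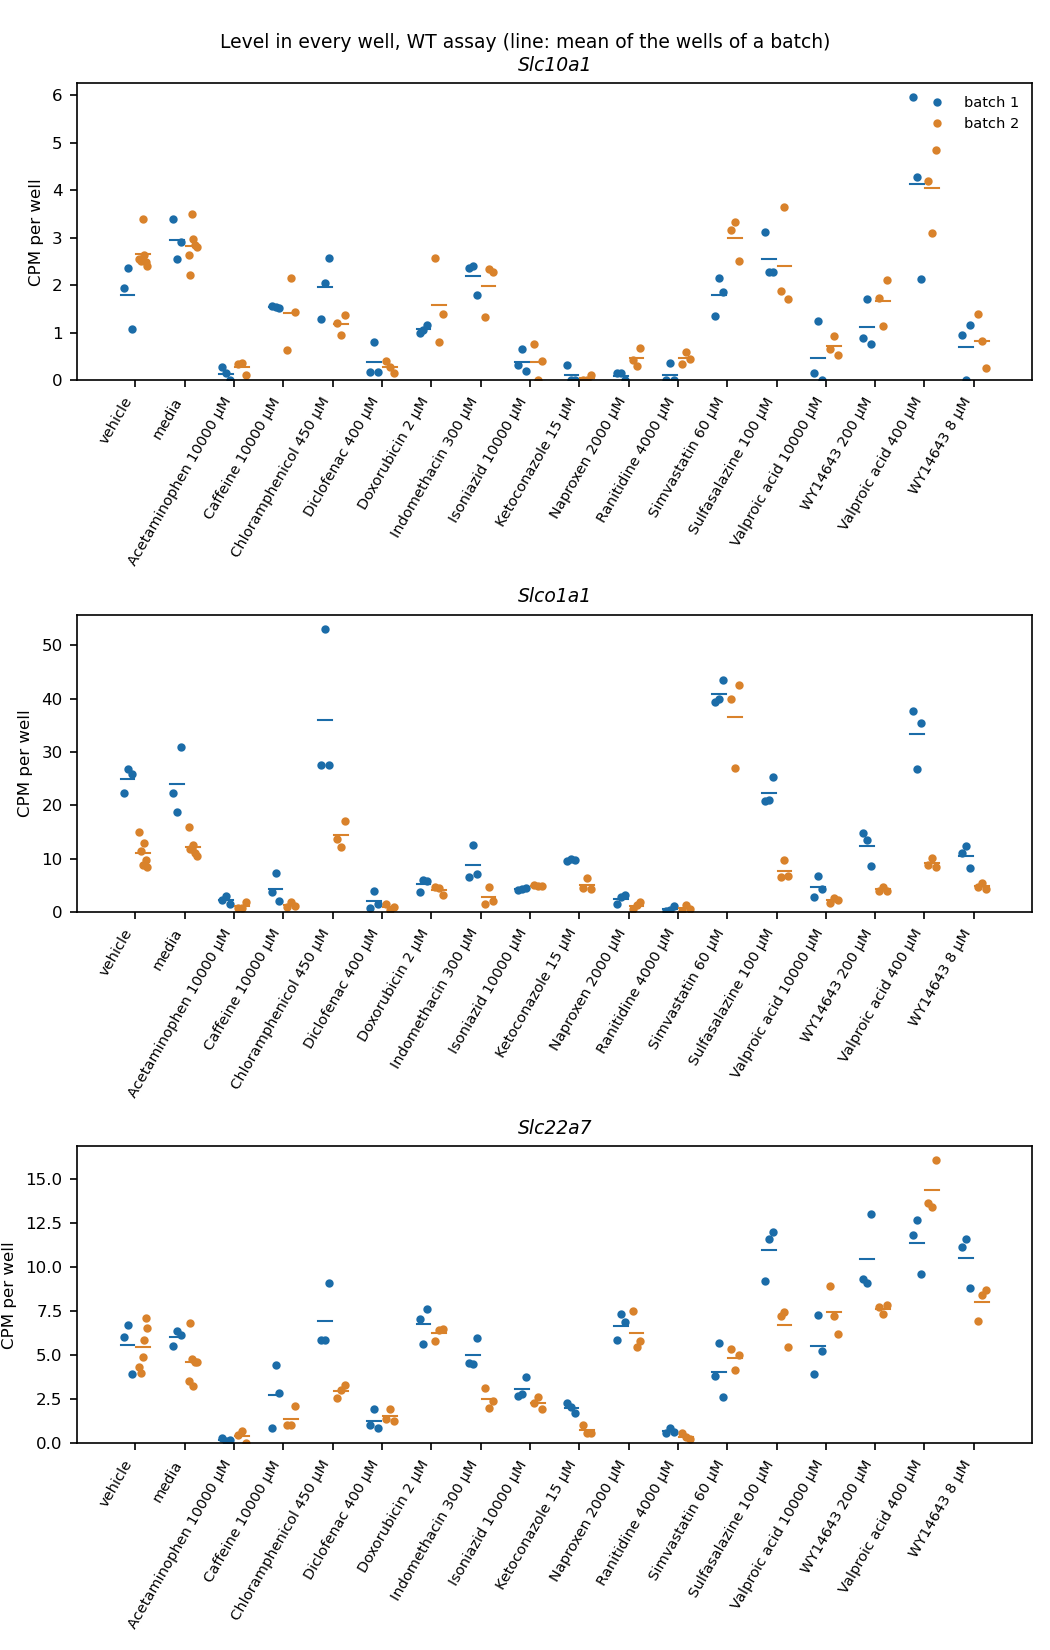
CPM of Slc10a1, Slco1a1 and Slc22a7 in every WT well for vehicle, media, the 14 high concentrations and the low ones of WY14643 and valproic acid, with batch 1 in blue, batch 2 in orange and a line at the mean of the wells of a batch. The wells of 4000 µM ranitidine lie near 0 in all 3 panels, the batch means of Slco1a1 are highest with 60 µM simvastatin, with 1 well of 450 µM chloramphenicol in batch 1 above them, and those of Slc22a7 with 400 µM valproic acid.

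The 3 carriers with few reads were described from the fit without the filter, in which 13.8% of all pairs were lower and 13.9% higher at the high concentrations, and 1.99% and 2.17% at the low. Of their 42 pairs at the high concentrations 16 were lower and 5 higher. At the low concentrations none was lower and 3 were higher. The fit without the filter took in every gene with any read, so its shares are not those of genes with like counts. Among genes that passed the filter, 25.5% of pairs were lower and 25.4% higher at the high concentrations. At the low concentrations these shares were 4.5% and 4.91%.

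Slco1a4 encodes an OATP that is known as a target of PXR. It had 4, 5 and 9 reads in the vehicle wells of batch 1 and 3 to 7 reads in those of batch 2. With 60 µM simvastatin it had 64, 84 and 94 reads in batch 1 and 44, 73 and 107 in batch 2, above all vehicle wells. The ratio to vehicle was 12.4 in batch 1 (95% counting interval 7.65 to 21.2) and 15.1 in batch 2 (10.2 to 23.2), with an adjusted p of 3.45e-21. With 450 µM chloramphenicol it had 56, 59 and 69 reads in batch 1 and 18, 41 and 43 in batch 2, with ratios of 12.4 (7.66 to 21.5) and 6.41 (4.19 to 10.1). WY14643 at 200 µM gave 3.33 (1.95 to 5.96) in batch 1 and 1.10 (0.582 to 2.04) in batch 2. With 400 µM diclofenac no well of batch 1 held a read, which makes the level at least 5.503-fold lower than vehicle when 3 reads over the group are taken as the floor, and batch 2 held 1 read (ratio 0.0689, interval 0.00169 to 0.417).

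Of the 3 CAR and PXR targets on the assay, 2 rose where Slco1a4 rose with simvastatin and chloramphenicol, and they rose elsewhere as well. Cyp2b2 and Cyp2b1, cytochromes of drug metabolism, had an L2FC of 4.75 and 2.45 with 60 µM simvastatin and of 4.22 and 2.93 with 450 µM chloramphenicol. Cyp3a9 was not called with simvastatin and fell with chloramphenicol (-0.49 ± 0.16). With 10000 µM caffeine Cyp2b2 (6.48 ± 0.29) and Cyp2b1 (5.47 ± 0.38) rose more, while Slco1a4 was not called higher. Both had their highest L2FC with 200 µM WY14643, at 8.70 ± 0.30 and 6.77 ± 0.36. Slco1a4 was higher there as well in the fit without the filter (1.29 ± 0.38, adjusted p = 0.00460). By its ratios above, the interval in batch 2 included no change. In batch 1 WY14643 was on the plate without vehicle wells. With 2000 µM naproxen Cyp2b2 (4.59 ± 0.29) and Cyp2b1 (3.84 ± 0.42) rose, while Slco1a4 was lower (L2FC of -1.48 ± 0.54, adjusted p = 0.0281). Over the 14 high concentrations 23 of the 42 pairs of these targets (54.8%) were higher and 7 (16.7%) lower, against 25.4% and 25.5% of the pairs of all genes.

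Slco1b2 encodes the main OATP1B carrier of rat liver. It had 16, 17 and 18 reads in the vehicle wells of batch 1 and 5 to 9 in those of batch 2. With 400 µM valproic acid it had 34, 61 and 97 reads in batch 1 and 15, 26 and 47 in batch 2, all above the vehicle wells of the same batch. The ratio to vehicle was 3.66 (95% counting interval 2.67 to 5.08) in batch 1 and 4.20 (2.86 to 6.26) in batch 2, with an adjusted p of 2.92e-09. At 10000 µM the same chemical lowered it, with ratios of 0.0905 (0.0237 to 0.246) and 0.223 (0.0688 to 0.566). Its lowest levels were with 400 µM diclofenac and 10000 µM acetaminophen, with 6 reads each over both batches, and their order is not resolved. Diclofenac had 0, 1 and 2 reads in the wells of each batch, with ratios of 0.0641 (0.0128 to 0.198) and 0.145 (0.0286 to 0.454). Acetaminophen had ratios of 0.0502 (0.00592 to 0.191) and 0.153 (0.0399 to 0.424). It was also lower with 4000 µM ranitidine, 15 µM ketoconazole and 2000 µM naproxen. It was higher with 200 µM WY14643 (L2FC of 0.89 ± 0.31, adjusted p = 0.0213 in the fit without the filter), with ratios of 1.26 (0.870 to 1.85) in batch 1 and 1.87 (1.20 to 2.93) in batch 2.

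Slco2b1 had the fewest reads, with 3 to 5 in the vehicle wells of batch 1 and 1 to 6 in those of batch 2. With 10000 µM caffeine it had 29, 30 and 33 reads in batch 1 and 32, 35 and 43 in batch 2, above all vehicle wells and above every well of the next treatment in order. The ratio to vehicle was 8.47 (95% counting interval 4.71 to 16.5) in batch 1 and 13.4 (7.68 to 25.4) in batch 2, with an adjusted p of 8.56e-17. It was higher with 400 µM valproic acid too (ratios of 2.09 and 2.72). Falls were called with 10000 µM valproic acid, 2000 µM naproxen, 10000 µM acetaminophen, 15 µM ketoconazole and 400 µM diclofenac. With valproic acid 0, 1 and 1 reads remained in batch 1 and 0, 1 and 2 in batch 2, and the interval of the ratio in batch 2 (0.0705 to 1.37) includes no change.

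**Figure D4:**
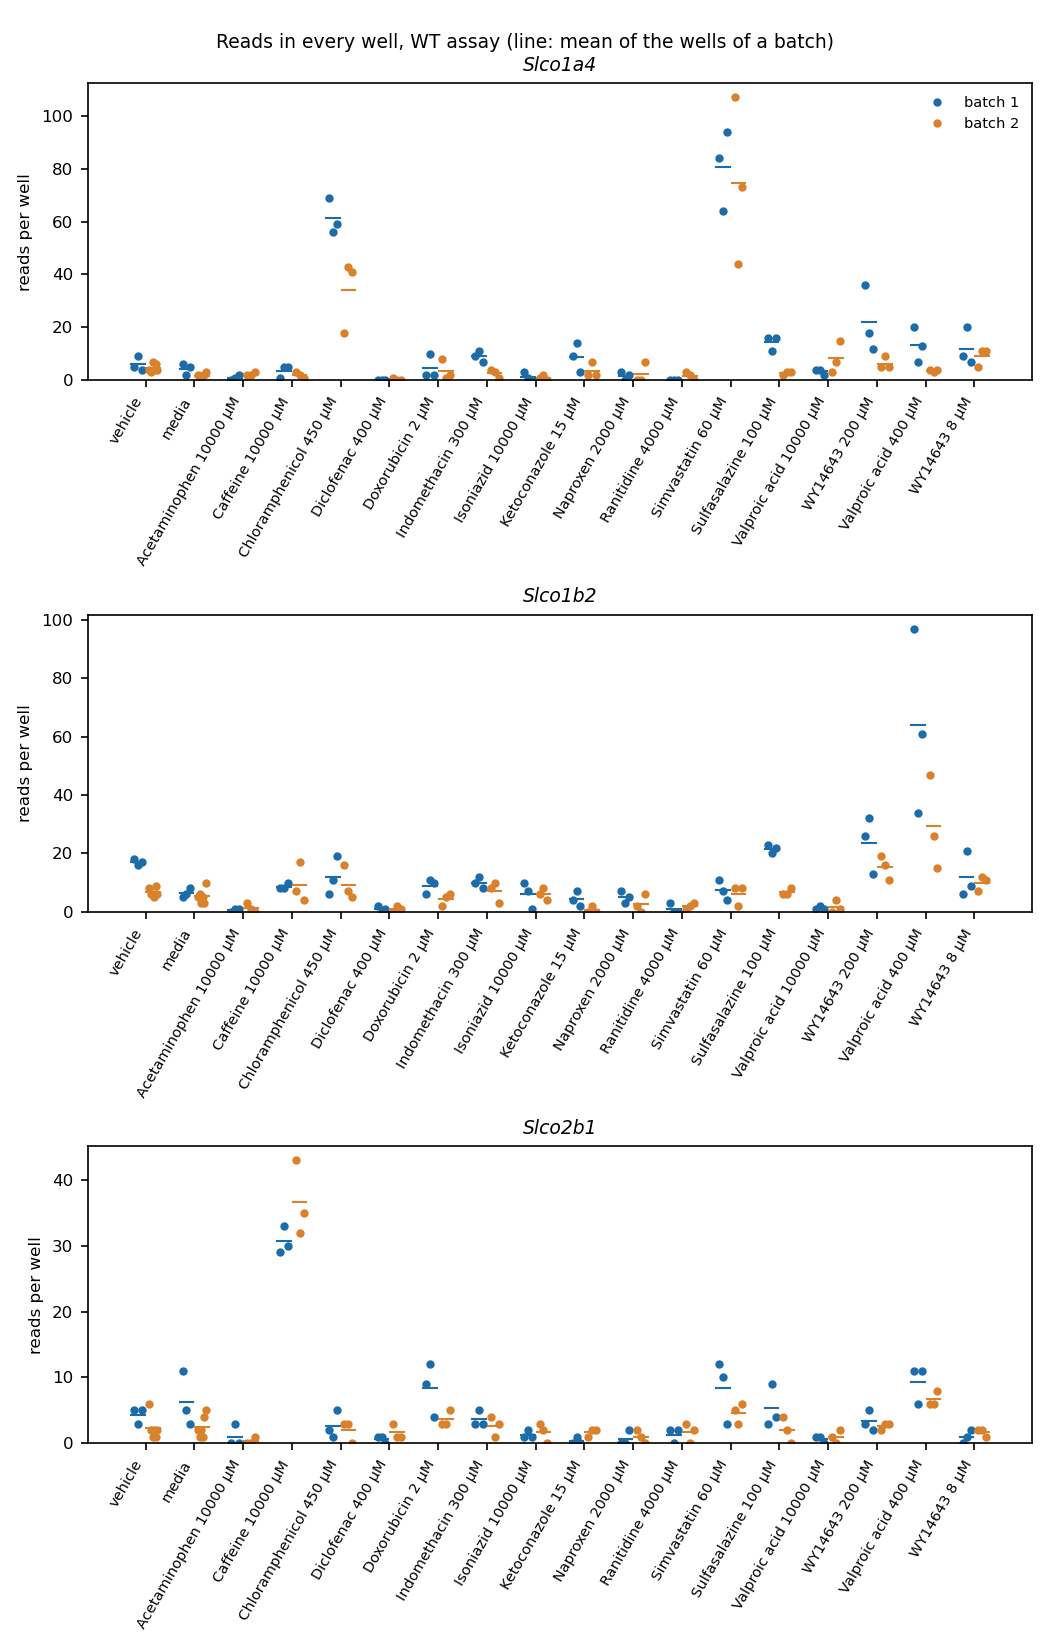
Reads of Slco1a4, Slco1b2 and Slco2b1 in every WT well for vehicle, media, the 14 high concentrations and the low ones of WY14643 and valproic acid, with batch 1 in blue, batch 2 in orange and a line at the mean of the wells of a batch. Each gene stands out in other treatments: Slco1a4 with 60 µM simvastatin and 450 µM chloramphenicol, Slco1b2 with 400 µM valproic acid, and Slco2b1 with 10000 µM caffeine.

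By treatment, the count of tested carriers that changed was read against the share of all genes that changed. All 5 changed with 10000 µM acetaminophen (78.9% of genes), 400 µM diclofenac (71.7%), 4000 µM ranitidine (66.2%) and 15 µM ketoconazole (51.3%), in each case with 4 lower and Slc22a5 higher. With 10000 µM valproic acid (66.7% of genes), 2000 µM naproxen (53.8%), 10000 µM caffeine (66.2%) and 10000 µM isoniazid (34.7%), 3 were lower and Slc22a5 was higher. With 200 µM WY14643 (51.4%) 2 were lower and 2 higher, and with 300 µM indomethacin (54.7%) 2 were lower and 1 higher. With 60 µM simvastatin (23.9%) and 100 µM sulfasalazine (40.9%) Slc22a8 alone was lower and 2 were higher. With 450 µM chloramphenicol (33.3%) Slc22a8 was lower and Slc22a5 higher, and with 2 µM doxorubicin (19.4%) Slco1a1 and Slc22a8 were lower.

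At the low concentrations the carriers changed mainly with 8 µM WY14643, where 3 were lower and 2 higher (56.2% of genes changed), and with 400 µM valproic acid, where Slc22a8 was lower and Slc10a1, Slc22a5 and Slc22a7 were higher (29.1%). With 80 µM naproxen (16% of genes) Slc22a8 was lower and Slc22a5 and Slc22a7 higher, and with 4 µM sulfasalazine (17.4%) Slc22a8 was lower and Slc22a5 higher. In the WT fit Slc22a8 was the 1 carrier that changed with 12 µM indomethacin (5.87%), 0.6 µM ketoconazole (1.62%) and 400 µM acetaminophen (1.38%). None of the 5 passed in that fit with 2.4 µM simvastatin (2.4%), 0.08 µM doxorubicin (1.32%), 16 µM diclofenac (0.137%) or 400 µM caffeine (0.118%). Nor did any pass in it with 18 µM chloramphenicol (0.0883%), 160 µM ranitidine (0.0589%) or 400 µM isoniazid (0.0196%). In the ST assay Slco1a1 was higher with 12 µM indomethacin (L2FC of 0.65) and lower with 2.4 µM simvastatin (-0.77).

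Media against vehicle asked whether 0.5% DMSO alone moved the carriers. None of the 5 tested carriers passed, while 12.6% of all genes did. The L2FC was 0.36 ± 0.24 for Slc10a1, 0.15 ± 0.18 for Slco1a1, -0.16 ± 0.11 for Slc22a5, -0.05 ± 0.19 for Slc22a7 and -0.01 ± 0.13 for Slc22a8. None of the 3 with few reads passed in the fit without the filter. Slco1b2 held 5, 6 and 8 reads in the media wells of batch 1 against 16 to 18 in vehicle (ratio 0.320, 95% counting interval 0.179 to 0.552), but in batch 2 the ratio was 0.856 (0.520 to 1.40). In the ST assay Slco1a1 was higher in media (L2FC of 0.57, adjusted p = 0.0116).

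High against low concentration of the same chemical gave 39 lower and 13 higher pairs of 70, or 55.7% and 18.6%, against 20.7% and 20.1% of all pairs. With valproic acid all 5 tested carriers were lower at 10000 than at 400 µM, with L2FC from -0.28 ± 0.12 for Slc22a5 to -3.02 ± 0.34 for Slc10a1. The Slc22a5 value was 0.02 (adjusted p = 0.876) when library totals took the place of TMM scaling, so its direction is not settled. For WY14643 none of the 5 differed between 200 and 8 µM at an adjusted p under 0.05, with a median L2FC of -0.08. With simvastatin Slco1a1 was higher at 60 than at 2.4 µM (2.00 ± 0.22), as was Slc10a1 (1.02 ± 0.32).

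**Figure D5:**
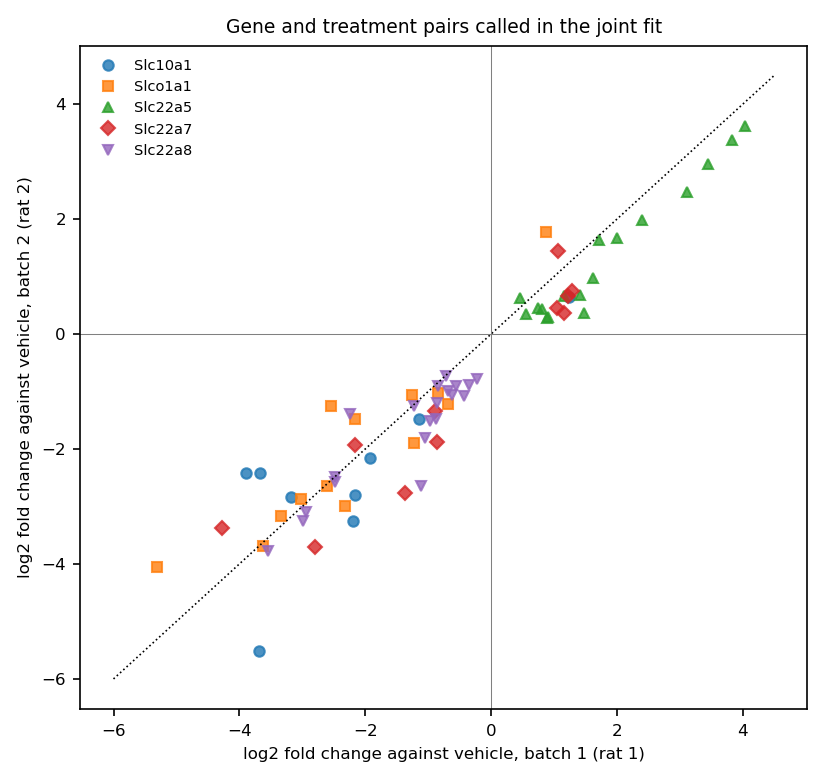
L2FC against vehicle in batch 1 (horizontal) and batch 2 (vertical) for the 70 pairs of gene and treatment that changed in the joint fit, with 1 symbol per gene and the dotted line at equal values. All points lie at the lower left or the upper right of the crossing at 0, so that no sign differed between the batches.

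Hepatocyte markers moved beside the falling carriers. Over the 14 high concentrations 69 of the 112 pairs of the 8 markers (61.6%) were lower and 16 (14.3%) higher, against 25.5% and 25.4% of the pairs of all genes. Their summed level was 7233 to 9926 CPM with 400 µM diclofenac, 12430 to 18170 with 4000 µM ranitidine and 16370 to 23190 with 10000 µM valproic acid, against 38580 to 46010 in vehicle. With 8 µM WY14643 it was 38710 to 40620 CPM and with 400 µM valproic acid 39970 to 50440 CPM, within or above the vehicle range. In both of those treatments Slc22a8 fell and Slc22a7 rose. The markers of Kupffer cells and leukocytes were lower in 39 of 70 pairs and higher in 7. The part of these shifts in the changes of the carriers was not tested.

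The other carriers and regulators on the assay did not share one direction. Over all genes tested, 25.5% of pairs at the high concentrations were lower and 25.4% higher. Of 8 tested other uptake carriers, 43 of 112 pairs at the high concentrations (38.4%) were lower and 35 (31.3%) higher, with a median L2FC of -0.05. With 8 µM WY14643 Slc27a2, a fatty acid transporter and acyl-CoA synthetase, was at 3.53 ± 0.14 and Slc2a2, the glucose carrier GLUT2, at -2.87 ± 0.17. Slc13a5, a citrate carrier, held 23 reads in batch 1 against 3 in vehicle (3 wells each). In batch 2 it held 80 (3 wells) against 18 (6 wells). With 10000 µM acetaminophen Slc10a2, the bile acid carrier of ileum and bile ducts, held 1 read in batch 1 against 1029 in vehicle. In batch 2 it held 3 against 899, over the same numbers of wells. Of 8 tested efflux carriers 34 of 112 pairs (30.4%) were lower and 39 (34.8%) higher, with a median of 0.06. With 4000 µM ranitidine Abcc6 was at -3.11 ± 0.43 and the phospholipid exporter Abcb4 at 2.83 ± 0.26. The 5 tested bile acid enzymes were lower in 31 (44.3%) and higher in 21 (30.0%) of 70 pairs, and with 10000 µM acetaminophen, where 78.9% of all genes were called, 4 were lower, among them Acox2 (-4.37 ± 0.31), Akr1d1 (-2.85 ± 0.31) and Cyp27a1 (-2.83 ± 0.18).

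Among 16 transcription factors known to act on transporter genes, 83 of 224 pairs at the high concentrations (37.1%) were lower and 74 (33.0%) higher. With 10000 µM acetaminophen, where 78.9% of all genes were called, 12 were lower and 3 higher, with the nuclear receptor Nr1i2 (PXR) at -4.45 ± 0.19. Nr1i3 (CAR) held 1 read in batch 1 and 5 in batch 2, against 96 and 219 in vehicle. Nr0b2 (SHP) held 1 read in batch 1 and none in batch 2, against 22 and 38 in vehicle. These reads were summed over 3 treated wells per batch, and over 3 vehicle wells in batch 1 and 6 in batch 2. The low concentration of valproic acid raised 12 and lowered 2, against 29.1% of all genes called, with Nr1i3 at 2.08 ± 0.18, Ppara at 1.23 ± 0.20 and Nr0b2 at 1.18 ± 0.33. The AhR targets were higher in 16 (38.1%) and lower in 11 (26.2%) of 42 pairs, and the NRF2 targets higher in 20 (47.6%) and lower in 11 (26.2%) of 42.

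Among the members, the L2FC over the 28 treatments ran most alike for Slc10a1 and Slco1a1 (Pearson r = 0.750) and for Slco1a1 and Slc22a8 (0.691). Slc22a5 ran against Slc22a8 (-0.491) and Slco1a1 (-0.385). Of all other genes, the pattern of Slc22a5 was nearest to Ppm1k (0.952), Tmem56 (0.951) and AABR07072203.1 (0.946). Slc22a8 was nearest to Tmco5b (0.931), Tnfsf13 (0.915) and Flna (0.913), and Slc22a7 to Syne4 (0.954), Shank3 (0.939) and Igsf5 (0.934). Slco1a1 was nearest to the male-specific cytochrome Cyp2c11 (0.933), LOC103690116 (0.928) and Gstm2 (0.924), and Slc10a1 to Hsd3b5 (0.878), Klkb1 (0.869) and Fkbp8 (0.866). All of these are descriptions over 28 treatments that share the vehicle wells and the rats, and each gene named is among the 3 nearest of 10191 genes.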

How the data were processed

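Primary rat hepatocytes were measured by TempO-Seq in 372 libraries, the same wells in the ST and the WT assay. Per the labels, reads were aligned with STAR 2.5.3a to rn6, and the authors deposited raw read counts per probe and well, not normalized, separately for each assay. Wells were grouped by the chemical, concentration and batch in their labels. Probe counts of a gene were added, ignoring upper and lower case, and CPM is the count in 1000000 reads of the well. A separate probe labelled Slco1a2 was not added to Slco1a4. A gene was tested if it averaged 10 counts or more over the WT wells. All WT wells entered 1 fit by edgeR 4.0.16 (quasi-likelihood, TMM scaling, batch as a term) under R 4.3.3. P-values were adjusted by Benjamini-Hochberg over all genes tested in a comparison, and an adjusted p under 0.05 was taken as changed. The SE of an L2FC is its size divided by the square root of the F value. DESeq2 1.42.0, other scalings, no filter, sums per rat, single batches, the vehicle of the same plate, the ST assay and left-out wells were alternatives, and fits without 1 replicate kept the dispersion trend of all wells. Wells are technical replicates, and the joint fit has no interaction of batch and treatment. Its p-values rest on the spread between wells and on differences in a treatment's effect between the batches. They cover 2 rats only. Counting intervals of a ratio are exact (Clopper-Pearson) and cover counting error only. Named genes are the 8 members, with all wells for the strongest fall and rise, up to 3 genes per list and treatment with the largest absolute L2FC and 1 sign in both batches, and the 3 genes nearest in pattern to each member. Of the listed genes, 14 were not analysed here, and the counts of the PPAR alpha list are not reported here. The members, lists and motifs were chosen with earlier results of these data known. Where a group held 1 to 3 reads, reads are given in place of L2FC.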

Additional observations from a re-analysis of the deposited data

Results flagged for a closer look

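The size of 8 changes differed between the batches, by a test of the interaction of batch and treatment in edgeR (adjusted p under 0.05). Each batch was 1 rat with its own plates, so rat, batch and plate cannot be told apart, and 10000 µM acetaminophen, 15 µM ketoconazole and 18 µM chloramphenicol were in batch 1 on the plate without vehicle wells. In all, 145 such pairs of the 5 tested carriers were tested, and 2.36% of all pairs over all genes passed. The values are the L2FC in batch 2 minus that in batch 1. For Slc22a5 it was -0.65 with 10000 µM caffeine, -1.09 with 400 µM diclofenac, -0.63 with 4000 µM ranitidine and -0.76 with 10000 µM valproic acid, so each rise was smaller in batch 2. For Slc22a8 it was 0.85 with 10000 µM acetaminophen, where the wells held 21.5 to 35.7 CPM in batch 1 and 65.3 to 75.3 CPM in batch 2. It was -0.77 with 15 µM ketoconazole and -1.55 with 4000 µM ranitidine, where the mean was 75.1 CPM in batch 1 and 37.6 CPM in batch 2. With 18 µM chloramphenicol it was -0.96, and the gene was not lower than vehicle in batch 1 (L2FC of 0.13).

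In the vehicle wells of batch 2, 1 of 6 wells stood apart for Slc10a1 at 3.40 CPM and 1 for Slco2b1 at 0.901 CPM. These 2 were found in 16 groups of 6 wells, and the limit used, Dixon's 95% critical value, is set so that chance passes it in about 1 in 20 groups. The Slco2b1 value rests on 6 reads.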

How the results depend on the processing

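The 37 lower and 16 higher pairs at the high concentrations became 33 and 7 when an absolute L2FC of at least 1 was asked for as well (9.3% and 6.3% of all genes' pairs), and the 9 lower and 8 higher pairs at the low concentrations became 3 and 3 (0.688% and 1.1%). At the low concentrations, of 70 pairs, sums per rat gave 4 lower and 5 higher (1.88% and 2.14% of all genes' pairs), batch 1 alone gave 5 lower (2.01%), and batch 2 against the vehicle of the same plate gave 14 lower and 5 higher (4.66% and 4.89%). For high against low, the 13 higher became 8 with the limit on L2FC (5.18%). Media gave 1 higher in the ST assay. Leaving out 1 replicate of every group or 1 vehicle well gave 37 to 40 lower and 15 to 16 higher at the high concentrations, 8 to 10 lower and 6 to 9 higher at the low, 35 lower and 11 to 12 higher for high against low, and 0 for media. In these fits 21.6% to 25.1% of all genes' pairs were lower and 21.3% to 25.4% higher at the high, and 2.65% to 4.34% and 2.91% to 5.07% at the low concentrations. No sign of the 70 called pairs turned in any of these WT fits or in DESeq2, RLE, unscaled or unfiltered fits, and all 70 passed in those 4. The ST assay turned Slc22a5 with 15 µM ketoconazole (-0.13) and with 4 µM sulfasalazine (-0.074), where it reads 1 of the 2 probes. Without TMM scaling, Slc22a5 at the high against the low concentration of valproic acid moved from -0.28 to 0.02, and the median of all genes moved by -0.41 to 0.27, and by over 0.1 in 10 of 29 comparisons. Treatment and vehicle were compared within each rat, by the batch term of the joint fit and by the sums per rat. No paired analysis was possible for single wells, because the labels give them no replicate number. At a few reads per well, falls of Slc10a1 and of the 3 untested carriers are bounded only loosely.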
